A study of Mus musculus with 12 samples.

Results

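The 285 mouse microRNA genes described here are the rows of a 5764-gene expression table whose symbol is Mir followed directly by a number of 1000 or more, with host-gene symbols ending in hg left out. The rule itself reads the symbol and no measured value. The libraries hold RNA pulled down with ribosomes from hypothalamus enriched for the arcuate nucleus of POMCRiboTag mice, in which an HA-tagged ribosomal protein marks neurons that express pro-opiomelanocortin (POMC). Both groups of 6 libraries came from mice of that genotype that had fasted overnight (16 h) and spent 1 h in the test room, at about 6 h of zeitgeber time. For 10 min one group was shown wood sticks inside a metal cage (NEO, a caged object that cannot be eaten) and the other was shown caged chow that could be seen and smelled (SENS). The sources used here give neither the driver of the tag nor the sex and age of the mice, and no input library is among the 12, so RNA bound to the beads without the tag cannot be told apart from tagged ribosomes. Mice were housed in pairs or triplets, and whether a library stands for 1 mouse or several is not stated.

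MicroRNA genes are transcribed as long primary transcripts, or lie inside the transcripts of other genes. The nuclear complex of Drosha and Dgcr8 cuts out a hairpin, Dicer trims it to a duplex, and 1 strand is loaded into an Argonaute protein, which it guides to messenger RNAs through its seed, bases 2 to 8. Mirtrons skip the Drosha step: their hairpin is a spliced intron or part of one, so its end can be the 3′ splice site. Mature microRNAs have no poly(A) tail, while the cDNA kit used here starts from poly(A) tails, so a value for a microRNA gene stands for reads that fell on its hairpin interval. Whether such reads came from a primary transcript, a retained or unspliced intron, a host transcript or genomic DNA cannot be told apart in this table. Neither kit keeps the strand, so reads from a microRNA gene and from a gene on the opposite strand cannot be told apart either.

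The mature sequences of the 10 members with the highest mean level are shown first, since the per-library values given further on are mainly theirs. The capitals mark the seed. They are RefSeq entries on the GRCm38.p6 build, printed 5′ to 3′.
mmu-miR-3098-5p: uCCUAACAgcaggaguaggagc
mmu-miR-3098-3p: uUCUGCUGccugccuuuagga
mmu-miR-7052-5p: uGUGGGAAgguggaggccuuu
mmu-miR-7052-3p: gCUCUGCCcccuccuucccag
mmu-miR-1249-3p: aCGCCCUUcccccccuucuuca
mmu-miR-3101-5p: gGUACCAUugacuaaagcuag
mmu-miR-3101-3p: uAGCUUUGguggauggucuuu
mmu-miR-3072-5p: aGGGACCCcgagggagggcagg
mmu-miR-3072-3p: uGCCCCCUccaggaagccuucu
mmu-miR-6992-5p: uGCCUGUGaugguuuggcugagu
mmu-miR-6992-3p: uCUCACUGaugaucauuugcag
mmu-miR-7652-5p: uAAGGGCAcagggauuucaggc
mmu-miR-7652-3p: uCUGGCUUuccuguggcuucu
mmu-miR-1192: aAACAAACaaacagaccaaauu
mmu-miR-1894-5p: cUCUCCCCuaccaccugccucu
mmu-miR-1894-3p: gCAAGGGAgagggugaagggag
mmu-miR-3061-5p: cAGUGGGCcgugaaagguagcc
mmu-miR-3061-3p: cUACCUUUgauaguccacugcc

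Among these 10 members no seed was shared. Over all members, 260 had a mature sequence in the RefSeq table, 428 sequences in all with 409 distinct seeds, and 18 seeds were shared by at least 2 members, involving 35 members. The seed GGGCUGA was the only one shared by 3 members, Mir7028, Mir7079 and Mir7662, whose sequences carrying it follow.
mmu-miR-7028-5p: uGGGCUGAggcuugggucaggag
mmu-miR-7079-5p: aGGGCUGAggcagugaguccug
mmu-miR-7662-5p: aGGGCUGAggccuggauccagc
The seed CUGGCUU was shared by Mir7652, listed above, and Mir7688.
mmu-miR-7688-3p: uCUGGCUUaugccuagcuuuc

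Hairpins divide the members further, and 4 are shown because they are the clearest examples of the 2 kinds of end; here the capitals mark the mature sequences. Those of Mir7052, Mir6992 and Mir1982 end with the last base of the 3′ mature sequence and with the letters AG, as the 3′ end of an intron does, while the hairpin of Mir3098 runs on past its mature sequences.
Mir3098: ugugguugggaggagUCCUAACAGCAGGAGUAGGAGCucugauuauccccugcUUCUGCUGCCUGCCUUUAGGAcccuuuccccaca
Mir7052: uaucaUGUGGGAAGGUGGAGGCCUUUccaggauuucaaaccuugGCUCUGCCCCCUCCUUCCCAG
Mir6992: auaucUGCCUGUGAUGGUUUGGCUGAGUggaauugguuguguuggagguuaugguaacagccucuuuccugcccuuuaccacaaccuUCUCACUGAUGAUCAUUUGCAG
Mir1982: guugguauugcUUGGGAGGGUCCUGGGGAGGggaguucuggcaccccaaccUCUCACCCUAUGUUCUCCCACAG

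Of the 247 members with a hairpin in the RefSeq table, 110 (44.5%) ended in AG, read on the hairpin's own strand. Among all 1005 RefSeq mouse hairpins of that table the share was 23.7%, and among the 163 hairpins of microRNA genes numbered below 1000 in the expression table it was 5.52%. By the member's number, the ends were frequent in 6000 to 6999 (52 of 79, 65.8%) and 7000 to 7999 (49 of 71, 69.0%), against 3 of 36 (8.33%) in 1000 to 1999 and 3 of 29 (10.3%) in 3000 to 3999. Members inside a gene on the same strand ended in AG in 97 of 181 cases (53.6%), against 3 of 20 (15.0%) of those inside a gene on the opposite strand and 0 of 20 of those that overlap no other gene. An AG end is a description of the letters and does not show that a hairpin is made by splicing.

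By position, 284 members had a RefSeq gene row, and 244 of them (85.9%) overlapped a protein-coding gene, 14 (4.93%) overlapped noncoding genes only and 26 (9.15%) overlapped no other gene. For the 191 microRNA genes numbered below 1000 in the table these shares were 55.5%, 15.2% and 29.3%. The overlapped gene ran on the same strand for 191 members and on the opposite strand for 22, and the strand was not resolved for 45. Only 22 members (7.75%) lay within 10 kb of another microRNA gene, against 97 (50.8%) of those numbered below 1000. RefSeq holds 370 further microRNA genes numbered 1000 and above that are not rows of the table. Of these, 34 (9.19%) lay within 10 kb of another microRNA gene, 73.5% overlapped a protein-coding gene and 18.9% overlapped no other gene. The 2 traits are thus not particular to the members. The members were spread over 20 chromosomes with a median length of 73 bp, from 39 to 139 bp. Only Mir7007 (with Cpa3) and Mir1291 (with Snora34) overlapped a gene that is itself a row of the table. Whether a member lies in an exon or an intron of its host was not analysed here.

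The table's genes had few reads, with a median of 9 per gene over the 12 libraries, and its values (CPM) are read counts scaled to a total of 1000000 over the table's own rows in each library. From the steps between low values, 1 read was worth 54.6 to 145 CPM, and the whole table held 6901 to 18299 reads per library, on average 1.54 times as many in SENS (13104) as in NEO (8509). A library value of 0 therefore allows a level of up to 164 to 435 CPM (3 reads), and 0 in all libraries of a group allows up to 58.8 CPM in NEO and 38.2 CPM in SENS. These limits cover counting error only. None of the 5 markers of POMC neurons looked up (Pomc, Cartpt, Pcsk1, Tbx3, Nr5a1) was among the rows, so the labelled cell type was not analysed here. No gene looked up for AgRP neurons, astrocytes, tanycytes and ependymal cells, oligodendrocytes and their precursors, microglia or endothelial cells was a row either. The filter that set the rows is not stated, so a missing row is no measure of the RNA pulled down. Over the 11 marker lists, 12 of 49 genes were rows: 6 of 7 pituitary genes summed to 380 to 2797 CPM in NEO and 64.1 to 9796 CPM in SENS, 4 of 5 leukocyte genes to 391 to 2066 and 1090 to 4236 CPM with Ms4a1 at 0, and 2 of 5 erythrocyte genes to 0 to 290 and 0 CPM. The part of such cells in the values below was not tested.

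Most members were seen in few libraries and by few reads. Of the 285, 218 (76.5%) had a value above 0 in at least 1 library and 67 (23.5%) were at 0 in all 12, against 10.8% of all genes at 0 and 28.3% of microRNA genes numbered below 1000. A single library held the signal of 87 members, 60 were above 0 in 2 or 3 libraries, 34 in 4 to 6, 26 in 7 to 9, 8 in 10 or 11, and 3 in all 12 (Mir3098, Mir7052 and Mir7652). The share above 0 in all 12 was 1.05%, against 4.02% of all genes and 1.05% of microRNA genes numbered below 1000. Per member the median was 2 reads over the 12 libraries, against 9 for all genes and 1 for microRNA genes numbered below 1000. The highest member had 82 reads, Mir3098. The members added up to 1645 reads in all, of which the 20 members with at least 20 reads held 47.4% and the 10 with the most reads held 31.4%.

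Values were whole reads for 96.8% of the members' values above 0. Only 9 members (3.16%) held a fraction of a read in some library, against 20.3% of all genes. For microRNA genes numbered below 1000 that share was 2.62%. How the authors assigned reads that match several places or genes is not stated in the sources used. Members inside a protein-coding gene held 79.4% of the member reads with a known position, those that overlap no other gene 14.9%, and those in noncoding genes 5.64%. Per member these were 5.31, 9.36 and 6.57 reads on average, with medians of 2, 2 and 1 reads. Mir3098 alone held 82 of the 243 reads of members that overlap no other gene. The shares of members above 0 were 75.8%, 88.5% and 64.3%, so the members outside any other gene were not the least detected.

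The summed level of the 285 members differed several-fold between libraries of the same group. In NEO libraries 1 to 6 it was 17284, 17043, 8034, 9988, 5699 and 8418 CPM. In SENS libraries 1 to 6 it was 9560, 9937, 13150, 8714, 20845 and 15339 CPM. NEO libraries 1 and 2 and SENS library 5 were high, and the ranges of the groups overlapped: NEO libraries 3, 5 and 6 lay below every SENS library and SENS library 5 above every NEO library. The mean was 11078 ± 4910 CPM for NEO and 12924 ± 4617 CPM for SENS (SD, n = 6 each), and the difference of 1846 CPM was smaller than either SD. It was 262 CPM without SENS library 5 and 3088 CPM without NEO library 1. Pooled over libraries, the members took 1.19% of the table's reads in NEO and 1.32% in SENS.

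Library labels begin with a number that falls into 3 ranges, whose meaning the labels do not state. Within the range 1046 to 1050, with 1 library per group, SENS minus NEO was -7724 CPM. Within 1062 to 1074, with 3 per group, it was -1088 CPM, and within 1103 to 1116, with 2 per group, it was 11033 CPM. The difference thus did not hold its sign within these ranges. The microRNA genes numbered below 1000 summed to 7182 ± 2254 CPM (NEO) and 7474 ± 2632 CPM (SENS; SD, n = 6 each), and 4 of the 5 libraries highest for the members were also among the 5 highest for those genes.

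Members with a value above 0 numbered 84, 77, 35, 39, 28 and 37 in NEO libraries 1 to 6 and 43, 78, 87, 45, 92 and 74 in SENS libraries 1 to 6. Libraries with few members, 28 to 45, were found in both groups, as were libraries with 74 to 92. On average there were 50.0 ± 24.0 members for NEO and 69.8 ± 21.0 for SENS (SD, n = 6 each), a difference of 19.8 that was 15.4 without SENS library 5 and 26.6 without NEO library 1. SENS libraries held more reads, and at an equal 6000 table reads per library the expected numbers were 39.0 ± 14.7 and 44.8 ± 11.4, a difference of 5.74. Within the 3 label ranges the observed difference was -41.0, 19.7 and 50.5 members, and at 6000 table reads it was -27.3, 2.78 and 26.7. Detection of members did not follow that of all genes in each library: SENS library 6 had 74 members but only 1589 of all genes above 0, where the other libraries had 1419 to 2402 genes.

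**Figure D1:**
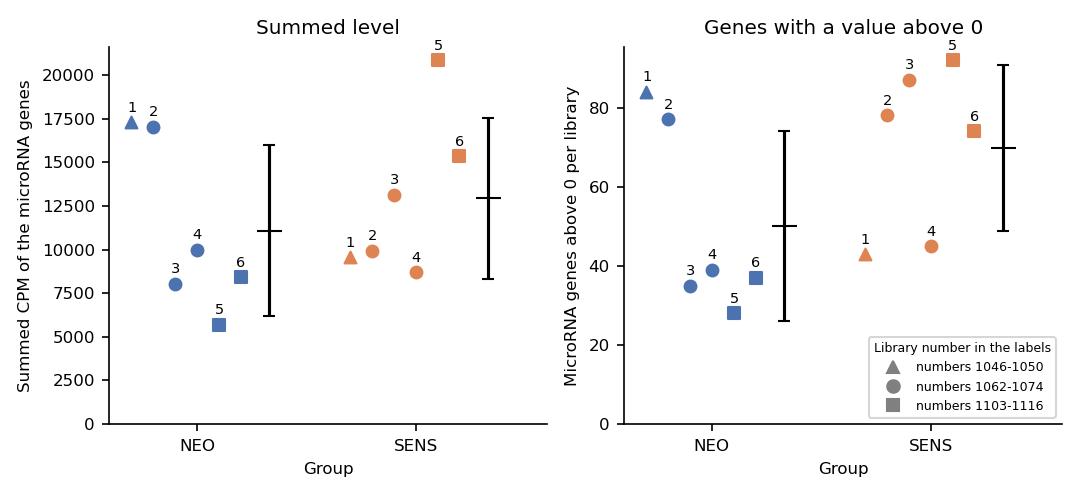
Summed CPM of the 285 microRNA genes (left, vertical axis in CPM) and the number of them above 0 (right) in each of the 12 libraries, with the marker shape giving the number range of the label; digits are replicate numbers, and the black cross and bar are the mean and SD of each group. NEO libraries 1 and 2 and SENS library 5 stand high on the left, and the groups overlap in both panels.

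Members inside protein-coding genes carried most of the summed level. Their sum was 7989 ± 4265 CPM for NEO (3768 to 13962) and 10506 ± 4824 CPM for SENS (5401 to 18637; SD, n = 6 each), with a ratio of 4.95 between the highest and the lowest library. For the 26 members that overlap no other gene the sum was 2324 ± 619 CPM in NEO (1564 to 3393) and 1656 ± 525 CPM in SENS (1211 to 2661), with a ratio of 2.80. The direction of the group means was thus opposite in these 2 sets, and in both the ranges overlapped. Without Mir3098, the 25 other members outside genes summed to 1408 ± 473 CPM in NEO and 1183 ± 416 CPM in SENS. SENS library 5 and NEO library 1, which were the highest of their groups for members inside protein-coding genes, were the lowest of their groups for members outside genes. Accordingly the share of member CPM that lay in protein-coding genes ranged from 62.0% in SENS library 4 to 89.4% in SENS library 5.

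Members whose hairpin ends in AG summed to 3218 ± 1861 CPM (NEO) and 4251 ± 2228 CPM (SENS; SD, n = 6 each), with a ratio of 5.41 between the highest and the lowest of the 12 libraries. The members whose hairpin does not end in AG summed to 6332 ± 2625 and 7397 ± 2322 CPM, with a ratio of 2.80. The 22 members inside a gene on the opposite strand, a smaller set, summed to 249 ± 183 and 371 ± 123 CPM. Per member they held 2.0 reads, against 6.28 for the 191 members inside a gene on the same strand. The shares of members above 0 were 72.7% and 76.4%.

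**Figure D2:**
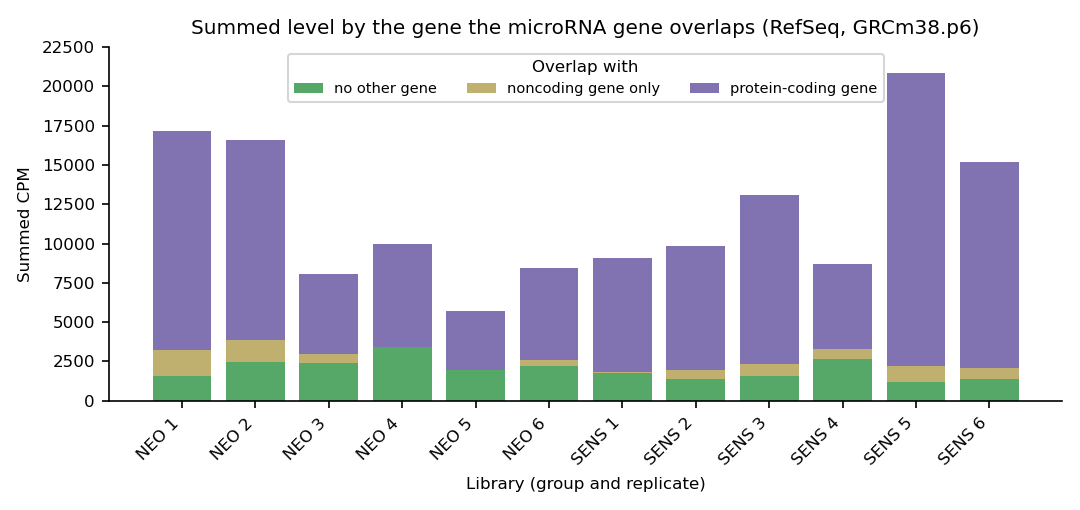
Summed CPM (vertical axis) of the microRNA genes in each of the 12 libraries as stacked bars, split by whether they overlap a protein-coding gene, noncoding genes only or no other gene in RefSeq; Mir1271, which has no RefSeq row, is left out. The protein-coding segment spreads from 3768 to 18637 CPM over the libraries, and the segment for no other gene from 1211 to 3393 CPM.

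For the comparison of food with object, limma was run on log2(CPM + 1) over the 5141 genes whose mean over all libraries reached 1 CPM, so that fold changes are on that scale and those of low genes depend on the added 1 CPM. It tested 218 members, and the 67 at 0 in all libraries were not tested. At a Benjamini-Hochberg adjusted p under 0.05 it called 0 of the 218 members and 0 of 5141 genes (0% called), and the smallest adjusted p was 0.745 for a member and 0.728 for any gene. At an unadjusted p under 0.05 there were 0 members, while 189 of all genes tested (3.68%) passed, 94 higher in SENS (1.83%) and 95 lower (1.85%). Few reads limit that count. A single library held the signal of 87 of the 285 members and of 1222 of the 5764 genes. Mir6932, such a member, had a limma unadjusted p of 0.284. The 0 therefore does not show that members responded less than other genes. No member had groups that did not overlap in CPM, as 5 of the genes tested (0.0973%) did.

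Fitted values lay above 0 for 141 members (64.7%, against 57.0% of all genes tested) and below 0 for 77, with a median log2 fold change of 1.02, SENS over NEO, against 0.39 for all genes tested and 0.94 for microRNA genes numbered below 1000. The quartiles were -1.03 and 1.30, and the median standard error was 1.55, larger than the median change. Members seen in 1 group only are part of this: 74 were above 0 in SENS alone, with at most 8 reads each, and 34 in NEO alone, with at most 3 reads each. SENS held more table reads, and of all 5764 genes, 1168 were above 0 in SENS alone and 528 in NEO alone. When the pooled reads of each group were divided by its table reads, with a group under 3 reads set to 3, the 78 members with more than 3 reads in some group had a median log2 ratio of 0.10, with 40 above 0 and 38 below. Over all 3619 genes so treated it was -0.11. With 50 CPM added in place of 1 CPM the median of the 218 members was 0.22, and it was 0 when the members at 0 in all libraries were kept in the list.

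**Figure D3:**
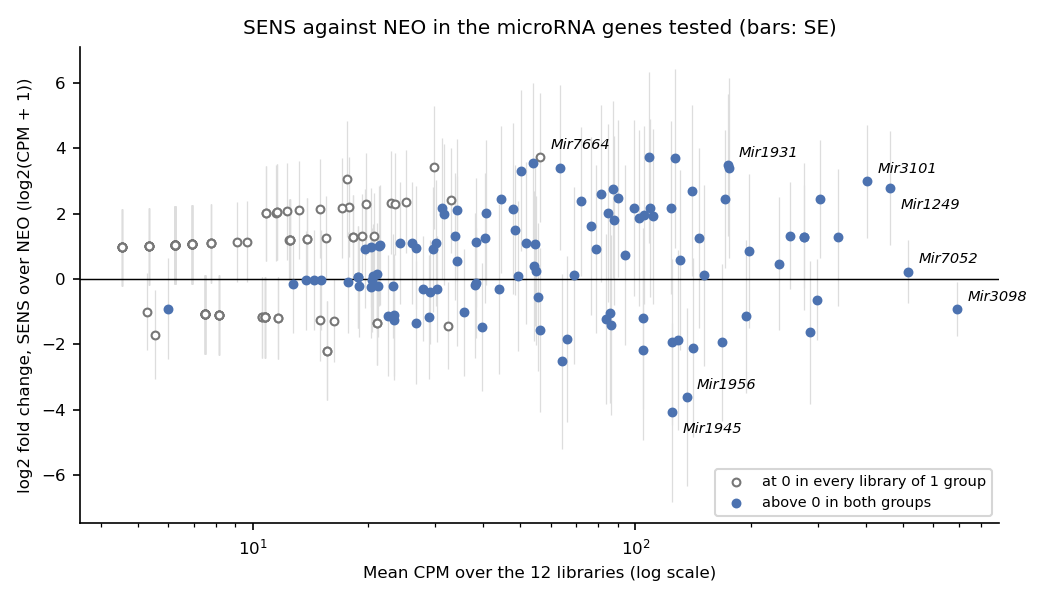
log2 fold change, SENS over NEO, on the log2(CPM + 1) scale (vertical axis) against the mean CPM over the 12 libraries (horizontal, log scale) for the 218 microRNA genes tested, with standard errors as grey bars; open points are at 0 in all libraries of 1 group. The values run from -4.08 for Mir1945 to 3.72, and the open points form bands at low mean CPM.

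Individual members are described in the order of where they lie, starting with those that overlap no other gene. Mir3098 (chr6:125195792-125195878, plus strand, GRCm38.p6) had the highest mean CPM of all members. It had 6, 15, 2, 12, 5 and 8 reads in NEO libraries 1 to 6 and 5, 3, 7, 8, 7 and 4 in SENS libraries 1 to 6. NEO libraries 2, 4 and 6 were above every SENS library in CPM, and the other NEO libraries lay within the SENS range. The mean was 915 ± 473 CPM for NEO and 474 ± 221 CPM for SENS (SD, n = 6 each), with a log2 fold change of -0.92 (SE 0.82, limma adjusted p = 0.745). The difference was not called, and the ranges of the groups overlapped.

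Mir7652 (chr11:55501226-55501281, plus strand) was likewise above 0 in all libraries, with 1, 4, 4, 2, 2 and 5 reads in NEO and 4, 4, 3, 2, 1 and 3 in SENS. In CPM the groups overlapped, at 368 ± 203 and 229.8 ± 129 (SD, n = 6 each), with a log2 fold change of -0.63 (SE 1.25, limma adjusted p = 0.860). Mir7688, which shares the seed CUGGCUU with Mir7652, had 3 reads in NEO and 7 in SENS. Mir3061 (chr11:52126746-52126836) had 0, 0, 3, 6, 1 and 1 reads in NEO and 1, 0, 2, 10, 2 and 9 in SENS, at 242 ± 297 and 309 ± 346 CPM. Its high libraries, NEO 4 and SENS 4 and 6, were found in both groups.

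Inside protein-coding genes, Mir7052 (chr7:44470347-44470411, plus strand) lies in Josd2, which encodes a deubiquitinating enzyme, on the same strand. It had 7, 5, 2, 2, 2 and 5 reads in NEO and 7, 2, 6, 3, 16 and 11 in SENS, and was above 0 in all libraries. SENS library 5 was the highest and SENS library 2 the lowest, so the SENS range enclosed that of NEO. The means were 434 ± 192 and 599.9 ± 430 CPM (SD, n = 6 each), with a log2 fold change of 0.23 (SE 0.96, limma adjusted p = 0.978), which became -0.074 without SENS library 5.

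Mir1249 (chr15:84951526-84951623, minus strand), in the host gene 5031439G07Rik on the same strand, had 11, 7, 2, 0, 0 and 1 reads in NEO and 1, 10, 9, 2, 20 and 3 in SENS. NEO libraries 1 and 2 and SENS libraries 2, 3 and 5 were the high ones. The means were 352 ± 425 and 574 ± 587 CPM (SD, n = 6 each), with a log2 fold change of 2.78 (SE 1.74, limma adjusted p = 0.745). Mir3101 (chr7:27176006-27176093, minus strand), in Rab4b, a small GTPase of recycling endosomes, had 5, 5, 4, 0, 1 and 0 reads in NEO and 1, 3, 10, 4, 14 and 11 in SENS. The 3 highest values were those of SENS libraries 5, 3 and 6, but SENS libraries 1 and 2 lay below NEO libraries 1 to 3. Its means were 274 ± 255 and 532 ± 391 CPM, with a log2 fold change of 2.99 (SE 1.72, limma adjusted p = 0.745).

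Mir6992 (chr19:8742971-8743079, plus strand) lies in Stx5a, the Golgi SNARE protein syntaxin 5, and had 8, 3, 0, 2, 3 and 0 reads in NEO and 1, 7, 3, 4, 5 and 6 in SENS. The means, 290 ± 294 and 318 ± 126 CPM, were close, and the log2 fold change of 2.44 (SE 1.81, limma adjusted p = 0.745) came with 2 NEO libraries at 0 and no SENS library at 0. Mir1192 (chr19:23149431-23149551), in Klf9, a Krüppel-like transcription factor, had 3, 7, 2, 3, 0 and 2 reads in NEO and 1, 3, 0, 0, 3 and 19 in SENS. SENS library 6 alone held 44.2% of its reads, and the other SENS libraries were below the NEO median of 286 CPM. Mir1894 (chr17:35917889-35917969), in Ppp1r10, a nuclear subunit of protein phosphatase 1, had 3, 3, 2, 2, 0 and 2 reads in NEO and 6, 2, 4, 1, 3 and 9 in SENS. It was at 226 ± 111 and 326 ± 230 CPM (SD, n = 6 each), and its log2 fold change of 1.29 became -0.058 without NEO library 5, the only one at 0.

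**Figure D4:**
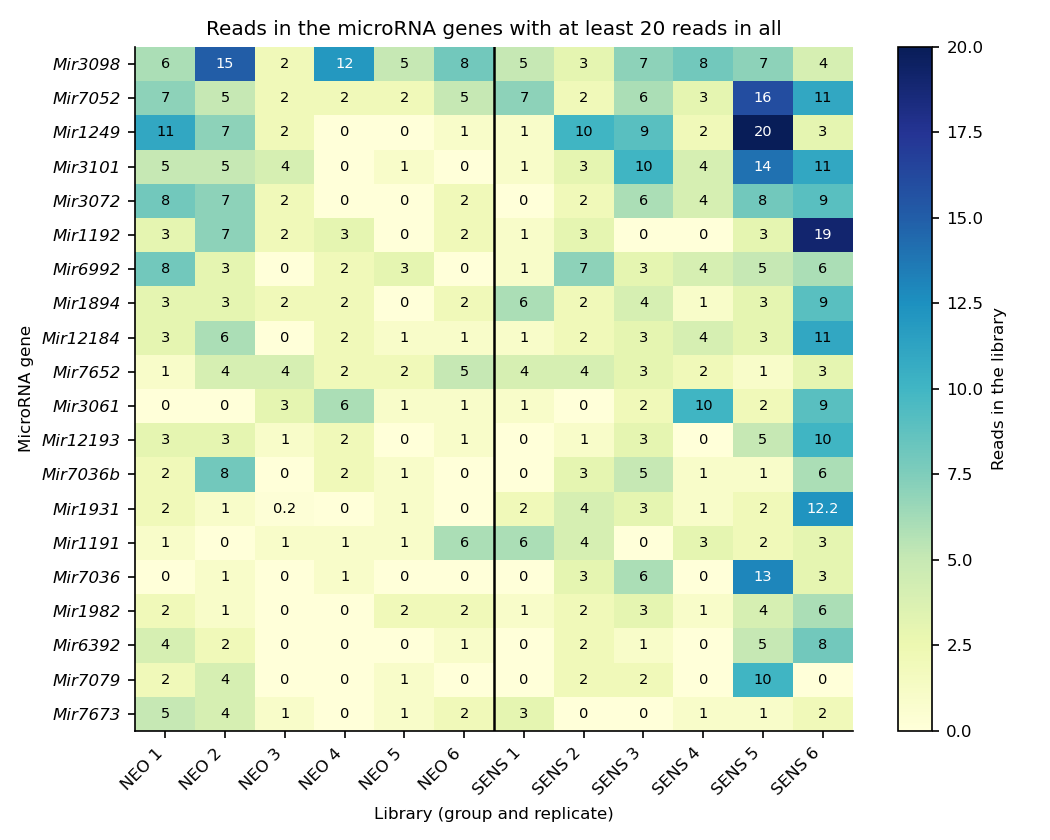
Reads in each of the 12 libraries (columns, NEO left and SENS right of the black line) for the 20 microRNA genes with at least 20 reads in all (rows); the number and the colour of a cell both give the reads. No row separates the groups, and the darkest cells are those of Mir1249 in SENS library 5 (20 reads) and Mir1192 in SENS library 6 (19 reads).

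Of the members in noncoding genes, Mir3072 (chr12:109747878-109747960, plus strand) had the most reads. It lies in Mirg, a long noncoding RNA of the imprinted Dlk1-Dio3 region that carries many microRNAs and is expressed from the maternal chromosome. It had 8, 7, 2, 0, 0 and 2 reads in NEO and 0, 2, 6, 4, 8 and 9 in SENS, at 325 ± 322 and 351 ± 245 CPM (SD, n = 6 each), with a log2 fold change of 1.27 (SE 2.09, limma adjusted p = 0.827). Both groups held libraries at 0 and libraries with 7 reads or more. The stretch from Meg3 to Mirg, looked up after the values were seen, held 6 members: Mir3072 with 19 reads in NEO and 29 in SENS, Mir1197 with 1 and 6, Mir1188 with 1 and 2, Mir3070b with 0 and 4, Mir3070a with 0 and 1, and Mir1193 with none.

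Further members above 0 in at least 10 libraries also had overlapping groups. Mir12184, in Gpld1, a phospholipase that releases lipid-anchored proteins, was at 227 ± 184 CPM in NEO and 282 ± 182 CPM in SENS. Mir1982, whose AG-ended hairpin is shown above, lies in Oaz1, the antizyme that limits polyamine synthesis, and was at 139 ± 127 and 204 ± 108 CPM. Mir1191, in BC024978, was at 214 ± 280 and 260 ± 235 CPM, with the highest value of either group in NEO library 6. Its log2 fold change of 0.46 became -0.79 without NEO library 2 and -0.080 without SENS library 1. Mir1931, in Cdk17, a cyclin-dependent kinase, was at 76.3 ± 81.3 and 273 ± 202 CPM (SD, n = 6 each) with a log2 fold change of 3.47 (SE 2.17, limma adjusted p = 0.745). SENS library 6 held 12.2 of its 28.4 reads, and 2 of its library values were fractions of a read.

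At 0 in all NEO libraries and with at least 5 reads in SENS were 4 members, each resting on few libraries. Mir7664 (chr2:25059811-25059873), in Nsmf, a protein that carries signals from NMDA receptors to the nucleus, had 4, 3 and 1 reads in SENS libraries 4, 5 and 6. With NEO set at its limit of 3 reads over the group, its pooled SENS level was 1.73 times that limit. The ratio leaves out the counting error of the SENS reads, so it is no lower bound on a difference. Its unadjusted p of 0.0627 was the smallest of all members (limma adjusted p = 0.745). Mir8106 (in Ano10, an anoctamin), Mir1964 (in Zfp84, a zinc finger gene) and Mir7236 (in Rab40b, a Rab-like GTPase) had 5 reads each. On the same basis they were at 1.08 times the NEO limit. Each had 4 of its reads in 1 library, and the 1 read left without it is below the limit. These members were picked for being at 0 in NEO, which fixes the direction.

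Also at 0 in NEO, and among the 10 members with the smallest unadjusted p on the higher side, were Mir7662 (in the tetraspanin gene Tspan15), Mir3070b and Mir6994 (in Patl1, a decapping factor) with 4 reads each and Mir7045 (in Chd4, a chromatin remodeller) with 3. Their SENS levels did not exceed the NEO limit, so no difference was detectable at this depth. Of the 3 members with the seed GGGCUGA printed above, Mir7028 (in Tchp) had 1 NEO read and 4 SENS reads, Mir7079 (in Rpl13, a ribosomal protein gene) had 7 and 14, with 10 in SENS library 5 alone, and Mir7662 had 0 and 4.

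Lower in SENS by the fitted value, Mir1945 (chr16:11254368-11254445, minus strand, no other gene) had the lowest log2 fold change of all members. It had 1, 0, 3, 1, 3 and 1 reads in NEO and 2, 0, 0, 0, 0 and 1 in SENS, at 201 ± 181 and 47.8 ± 92.9 CPM (SD, n = 6 each), with a log2 fold change of -4.08 (SE 2.73, limma adjusted p = 0.745). It was above 0 in 5 of 6 NEO and 2 of 6 SENS libraries. Mir1956 (chr3:138526421-138526485, plus strand), in Eif4e, the cap-binding factor of translation initiation, had 2, 1, 0, 3, 1 and 2 reads in NEO and 2, 0, 0, 0, 4 and 0 in SENS, with a log2 fold change of -3.61 (SE 2.72, limma adjusted p = 0.745). The other members named on this side rested on 3 reads or fewer in NEO and none in SENS: Mir6932 (in Helz) with 3 in NEO library 6, Mir5616 (in Ctnnbip1) and Mir8105 with 2 each in NEO library 4, Mir3092 (in Fndc3b) with 2 in NEO library 1, Mir7060 (in Fbrs) and Mir1966 (in Ripor1) with 1 each in NEO libraries 1 and 2, and Mir6358 with 0.5 read in all. On so few reads no fold is given.

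A further member, Mir7036, falls outside the rule for naming and is added because its values drew attention. That choice fixes the direction, so its fold change is no support for a difference. Mir7036 lies (chr5:137296624-137296688, minus strand) in Srrt, whose product Ars2 takes part in cap binding and microRNA processing. It had 2 reads in NEO, in libraries 2 and 4, and 0, 3, 6, 0, 13 and 3 in SENS, at 36.1 ± 57.1 and 314 ± 410 CPM (SD, n = 6 each), with a log2 fold change of 3.39 (SE 2.76, limma adjusted p = 0.745). SENS library 5 held 13 of its 25 SENS reads, and SENS libraries 1 and 4 were at 0. Mir7036b, in Add1, an actin-binding adducin, had 13 NEO reads and 16 SENS reads.

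Of 36 genes of the microRNA pathway looked up, 3 were rows of the table and 0 were called. Lin28a, which blocks maturation of let-7 microRNAs, was at 115 ± 224 CPM in NEO and 100.4 ± 208 CPM in SENS. Trim71, an RNA-binding ubiquitin ligase of stem cells, was at 596 ± 587 and 245 ± 295 CPM, and Piwil4, a PIWI protein that binds piRNAs in the germ line, at 821 ± 1045 and 403 ± 488 CPM (SD, n = 6 each). Their limma adjusted p-values were 1.00, 0.891 and 0.825. Drosha, Dgcr8, Dicer1 and the Argonaute genes were among those looked up but were not rows, so their levels were not analysed here. In such bulk samples fewer cells of a type and less RNA per cell cannot be told apart.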

How the data were processed

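The deposited values are CPM per gene, made by the authors from ribosome-bound RNA of 12 libraries. The submitters' processing notes name FastQC, HISAT2, featureCounts and edgeR and the builds GRCm38 and mm10; versions, the filter on genes, the strand setting and the treatment of reads matching several genes are not stated in the sources used. CPM are relative to the table's own rows in each library. The value of 1 read was taken from the steps between values: all values above 0 are multiples of a hundredth of a read, and 81.2% are whole reads (within 0.005), so no count test was run. Reads carry no molecular identifiers, so limits for 0 (3 reads) cover counting error only.

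SENS was compared with NEO by limma 3.58.1 (R 4.3.3) with a variance trend on log2(CPM + 1), two-sided, over genes whose mean reached 1 CPM, called at a Benjamini-Hochberg adjusted p under 0.05. The test was checked on simulated data. Sums and counts of members have no test. Other steps used Python 3.11.15. Alternatives were other pseudocounts, filters and scalings, no variance trend, blocks, and leaving out each library. Named members were the 10 per direction with the smallest unadjusted p, the 10 with the highest mean CPM, those at 0 in 1 group with at least 5 reads in the other, and those above 0 in at least 10 libraries. The members and lists were chosen with earlier results of these data known. The labels do not say that libraries are separate mice, so p-values measure the spread between these libraries. Positions and sequences are from RefSeq tables on GRCm38.p6, in which 284 members had a gene row. No 2 libraries held the same values (Pearson r of log2 values across genes 0.24 to 0.47).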

Additional observations from a re-analysis of the deposited data

Results flagged for a closer look

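Within each group of 6 libraries, the level of each named gene and the library totals were screened for 1 library standing apart, that is, a gap to its nearest neighbour above Dixon's 95% critical share of the group's range. Of 72 such groups, 14 (19.4%) had one. The rule is set so that chance gives about 1 in 20 for continuous values. That rate does not apply to counts tied at 0: a gene seen in 1 library of a group meets the rule by construction, and genes were named partly for being at 0 in a group. The number of such groups is therefore no result.

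In SENS library 6, Mir1931 was at 666.7 CPM (next highest 257), Mir1192 at 1038 CPM (next 249) and Mir7236 at 219 CPM (next 64.1). In SENS library 5, Mir1249 was at 1661 CPM (next 675) and Mir8106 at 332 CPM (next 64.1). Mir1945 was at 232 CPM in SENS library 1, next to 54.6 CPM. Among NEO libraries, Mir1191 was at 775 CPM in library 6 (next 145), and Mir1894 was lowest in library 5, at 0 CPM, next to 254 CPM. Seen in 1 NEO library only were Mir6932 at 387 CPM in library 6, Mir5616 and Mir8105 at 254 CPM each in library 4, and Mir3092 at 195 CPM in library 1. Lin28a was at 559 CPM in NEO library 3 (next 129) and at 519 CPM in SENS library 6 (next 83.1).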

How the results depend on the processing

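The count of members called was 0 in all settings tried, as was that of all genes. The number of members at an unadjusted p under 0.05, 0 as reported, was 1 with no filter on low values (Mir1931), 4 with no variance trend (Mir1931, Mir7662, Mir7664 and Mir1945), and 0 to 1 when single libraries were left out (Mir7664 without SENS library 1, 2 or 3, Mir7662 without SENS library 4 or 6). The median log2 fold change of the members was 1.57 with 0.1 CPM added, 0.22 with 50 CPM added, 0 with no filter, 0.59 after quantile scaling, and 0.82 to 1.25 without single libraries. The summed CPM difference was 262 to 3088 without single libraries. For the 26 members that overlap no other gene, a subset of the 285, it was -667, and the difference in members above 0 was 0.17. Without Mir3098 that subset summed to 1408 CPM in NEO and 1183 CPM in SENS on average.

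Of 34 named genes, 29 kept the sign of their log2 fold change in all 20 settings. The others changed sign only on leaving out a library: Mir7052 ranged from -0.074 to 0.60, Mir1894 from -0.058 to 1.58, Mir1191 from -0.79 to 1.81 (-0.080 without SENS library 1), Lin28a from -1.41 to 1.16 and Trim71 from -2.30 to 0.073. The smallest adjusted p of a named gene in any setting was 0.682. The causes were not tested.

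NEO and SENS libraries of the same replicate number fell in the same label range. Correlations of their deviations from the group means were -0.032 to 0.082, and 2 of 12 libraries correlated best with their own number. Genes had a median of 9 reads, so such correlations can be low for paired libraries too. The check cannot tell whether the numbers pair the libraries. With the replicate block 0 members were called and the median was 1.02. A median of 2 reads per member limits all comparisons.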
